A study of Mus musculus with 16 samples.

Results

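The genes that changed with pemafibrate in livers carrying a control adenovirus were measured by comparing 8 of the 16 libraries of the series, chosen by their titles. Of these, 4 were from mice given pemafibrate (Ad-CTRL Pema) and 4 from mice given the vehicle CMC (Ad-CTRL CMC). All were C57BL/6J wild-type mice that received the control adenovirus Ad-CTRL through the tail vein at 8 weeks of age. After 4 days they were gavaged with 1 mpk of pemafibrate or with CMC at 18 h and again at 5 h before liver removal, and both groups went without food for those 5 h. The other 8 libraries were from mice given the same number of genome copies of Ad-FAT10, an adenovirus that carries FAT10, with the same pair of treatments. Every mouse of the series therefore carried an adenovirus, and the labels name no group without one. The sex of the mice is not given in the sources used here. Libraries are numbered within a group as in the titles, and values for 4 libraries are always listed in that order.

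PPARα is a nuclear receptor of fatty acids that binds DNA as a dimer with the retinoid X receptor, at repeats of the hexamer AGGTCA. In hepatocytes it is best known for the genes of fatty acid uptake, peroxisomal and mitochondrial oxidation and ketone body formation, which it raises in fasting. Fibrates are its agonists, and pemafibrate was developed as a selective one. Agonists of PPARα are also known to lower some liver genes, among them genes of inflammation and of amino acid breakdown.

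Library totals in these 8 samples ran from 18663498 to 25814709 counts. A count of 0 allows up to 3 counts, or 0.116 to 0.161 CPM at these totals without further scaling, for counting error alone. Levels are CPM, counts scaled to a common library size by TMM, as mean ± SD over the 4 libraries of a group. On that scale the limit is somewhat higher, with 3 counts in Ad-CTRL CMC replicate 1 at 0.176 CPM. Changes are log2 ratios of Pema to CMC with the standard error of the edgeR quasi-likelihood test, and a gene is said to have risen or fallen when its p, adjusted by Benjamini-Hochberg across every gene tested, is under 0.05. The labelled tissue was checked against its defining genes. All 25 hepatocyte markers passed the filter on low counts, and Alb, the albumin gene, stood at 68007 ± 11351 CPM in CMC against 61850.4 ± 10509 CPM in Pema. Ubd, the gene that encodes FAT10, lay between 8.64 and 47.8 CPM in the 8 Ad-CTRL libraries, below the lowest Ad-FAT10 library at 110.5 CPM. Pemafibrate raised Ubd within the Ad-CTRL libraries from 15.2, 8.64, 11.97 and 9.002 CPM to 21.6, 47.8, 26.5 and 14.2 CPM, a change of 1.30 ± 0.36 (adjusted p = 0.00945). The groups overlapped, with the lowest Pema library below the highest CMC library. Without Ad-CTRL Pema replicate 2, the highest library, the adjusted p of Ubd was 0.0524.

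Pemafibrate changed 4523 of 14770 genes, 30.6% of all tested. It raised 2389 (16.2%) and lowered 2134 (14.4%). At least 2-fold were the changes of 602 higher genes (4.08%) and 575 lower genes (3.89%), and the median absolute log2 change of the genes called was 0.63. In 4526 genes (30.6%) all 4 libraries of a group lay above the 4 of the other, and 3826 of those were among the genes called. The first principal component of log2 CPM over the 8 libraries held 59.7% of the variance. It placed the CMC libraries between -42.8 and -33.9 and the Pema libraries between 35.5 and 44.7. Of the 4924 genes in the highest tertile by level 1333 rose and 709 fell, whereas of the 4923 in the lowest tertile 320 rose and 609 fell.

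**Figure D1:**
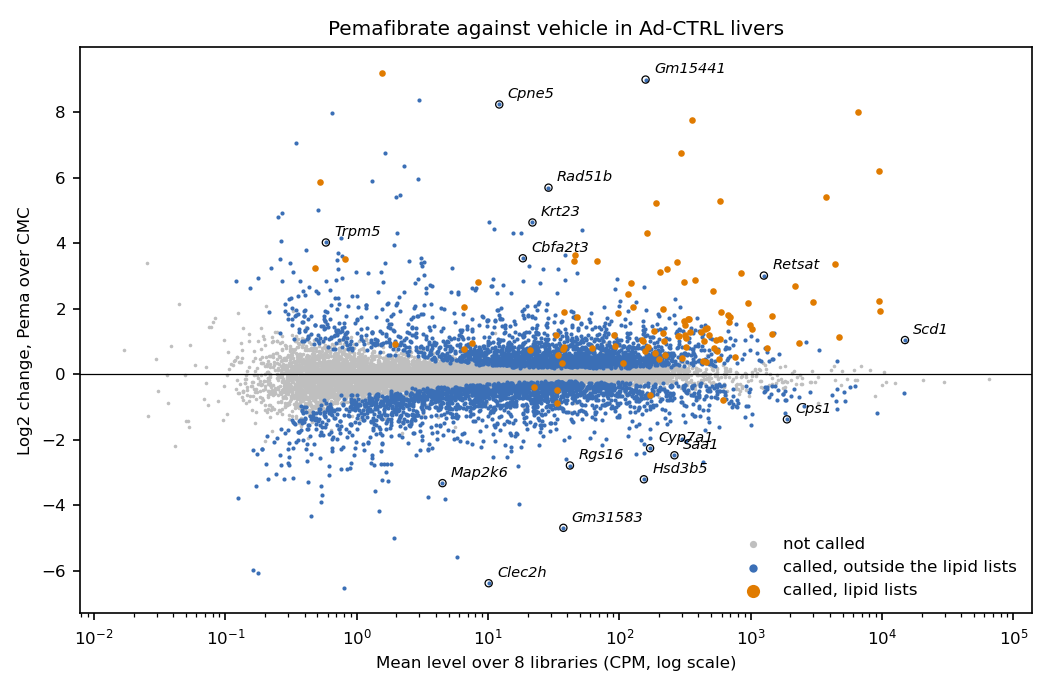
Log2 change with pemafibrate (vertical axis) against mean level in CPM (horizontal axis, log scale) for the 14770 genes tested. Grey points were not called, blue points were called, orange points are called genes of the 4 lipid lists, and the labelled genes all lie outside those lists. Most of the 2389 higher and 2134 lower genes lie outside the lipid lists.

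RNA of the lipid genes took a larger share of each treated library, and the split between higher and lower genes moved with the scaling. The 4 lists of lipid genes described next held 3.85%, 3.78%, 4.07% and 3.63% of the counts in CMC and 11.9%, 12.8%, 14.0% and 12.7% in Pema. Those groups did not overlap (exact permutation p = 0.0286, two-sided test, the lowest p possible with 70 assignments, 0.229 after adjustment over 16 library measures). With TMM scaling 52.8% of the genes called were higher. With library totals alone 1782 genes were higher and 2730 lower (39.5% higher), and with upper quartile factors 1918 and 2746 (41.1% higher). The median over all genes was -0.01 with TMM and shifted by -0.083 with library totals and by -0.075 with upper quartile factors. None of the called genes changed its direction and stayed called in any of the 25 alternative settings.

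Most marker genes of hepatocytes, largely secreted plasma proteins, fell. Of 25 hepatocyte markers 17 fell and 1 rose, with a median of -0.57, while Alb itself changed by -0.14 ± 0.19 (adjusted p = 0.648). Summed over the list the markers stood at 160834, 178578, 183552 and 189519.5 CPM in CMC and 121158, 159401, 149399 and 138806 CPM in Pema, without overlap (exact permutation p = 0.0286, two-sided, 0.229 after adjustment over 16 measures). In bulk liver RNA fewer cells of a type and less RNA per cell cannot be told apart. Ahsg, fetuin A, fell from 6146 ± 714 to 2942 ± 523 CPM (by 1.06 ± 0.16). Serpina1e, an alpha-1 antitrypsin of a family of close copies, fell from 16241, 10099, 12016 and 12139 CPM to 4294, 5966, 4675 and 7382 CPM. Hpx, hemopexin, fell by 0.82 ± 0.18, and Ttr, transthyretin, by 0.53 ± 0.13 (adjusted p = 0.00185 and 0.00389).

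**Figure D2:**
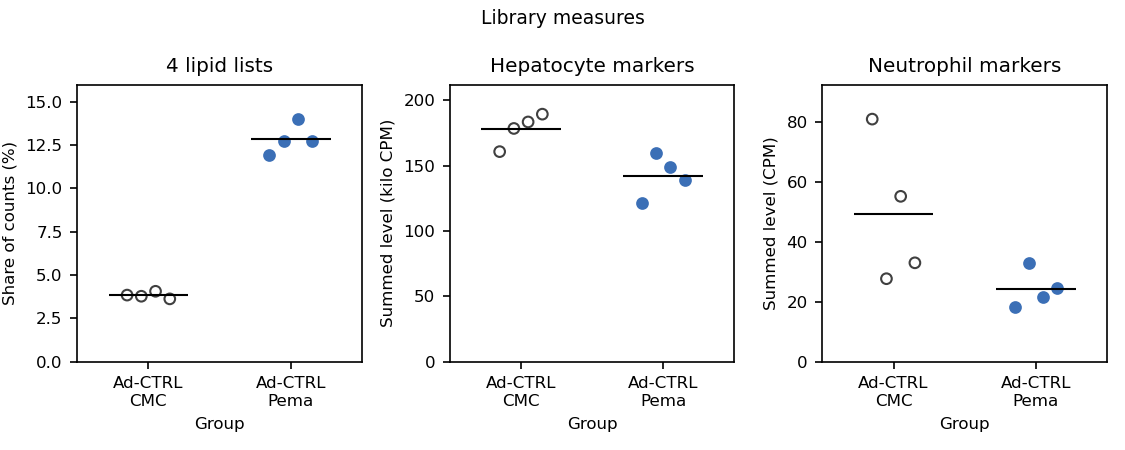
Share of counts in the 4 lipid lists (left, percent), summed level of 25 hepatocyte markers (middle, kilo CPM) and summed level of 13 tested and 4 untested neutrophil markers (right, CPM) in each of the 8 libraries. Points are libraries and horizontal lines are group means over 4 libraries. The lipid share is 3.63% to 4.07% in CMC and 11.9% to 14.0% in Pema, and the marker sums are lower in Pema, with overlap between groups for the neutrophil sum only.

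Genes of fatty acid handling, the known core of PPARα biology, had 95 risers and 5 fallers out of 129 and are given here only as the base for the rest. Of the 52 classical PPARα targets tested 51 rose and none fell, with a median of 2.21. Peroxisomal genes included 27 risers and 4 fallers out of 45, mitochondrial oxidation and ketogenesis genes rose in 26 of 35, and the droplet and uptake list had 21 risers and 1 faller among 28. Ehhadh, the peroxisomal bifunctional enzyme, had 251, 294, 246 and 229 CPM in CMC against 15071, 18841, 22543 and 18413 CPM in Pema, 73.4-fold apart. Pdk4, the kinase that shuts pyruvate dehydrogenase, went from 3.23, 2.77, 3.98 and 3.14 CPM to 688, 661, 951 and 567 CPM (7.77 ± 0.32, adjusted p = 2.88e-11). Cyp4a14, a fatty acid hydroxylase, spread more widely in CMC, at 9.74, 112, 48.4 and 35.3 CPM, than in Pema, at 10231, 13247, 16202 and 12915 CPM, with no overlap of the groups.

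A few lipid genes went the other way. The perilipin Plin3, a coat protein of lipid droplets, fell from 43.6 ± 3.37 to 23.5 ± 3.14 CPM, by 0.89 ± 0.11 (adjusted p = 4.68e-06), while other members of its list rose. Among peroxisomal genes Pecr, a trans-enoyl-CoA reductase, fell by 0.62 ± 0.14 (adjusted p = 0.00194) and Acox3, an acyl-CoA oxidase of branched chains, by 0.47 ± 0.13 (adjusted p = 0.00908). Nudt7, a peroxisomal coenzyme A diphosphatase, fell from 998, 742, 731 and 647 CPM to 487, 415, 399.5 and 495 CPM, by 0.79 ± 0.29 (adjusted p = 0.0422). Its groups did not overlap, but its call was lost in limma-voom (adjusted p = 0.0536) and without any 1 of 7 Ad-CTRL libraries, all but Ad-CTRL CMC replicate 4 (adjusted p = 0.0613 to 0.123). Pex11g, which divides peroxisomes, fell by 0.40 ± 0.15 (adjusted p = 0.0448), a call lost without any 1 of 10 libraries, among them every Ad-CTRL library but Ad-CTRL Pema replicate 4 (adjusted p = 0.0501 to 0.139). These 5 were all of the lipid genes that fell, of 129 tested, against 95 that rose.

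Shown here are 4 of the promoters that hold a repeat like that bound by PPARα, 3 of lipid genes that rose and 1 of a carrier gene outside the lipid lists. The windows are from RefSeq on GRCm38.p6 and are written 5′ to 3′ on the strand of the gene, with the 13 bases that match a direct repeat of AGGTCA with 1 base of any kind between the copies, or its reverse complement, in capitals. Each match differs from the motif at 2 of its 12 fixed letters.
Acot4: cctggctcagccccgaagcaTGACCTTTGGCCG
Plin2: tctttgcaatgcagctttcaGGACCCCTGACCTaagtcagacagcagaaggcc
Ucp3: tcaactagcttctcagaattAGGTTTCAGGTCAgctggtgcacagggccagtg
Slc25a47: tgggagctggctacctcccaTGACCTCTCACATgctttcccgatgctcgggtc
They lie at chr12:84038346-84038378 (Acot4, an acyl-CoA thioesterase, plus strand), chr4:86670252-86670304 (Plin2, a lipid droplet coat protein, minus strand), chr7:100472920-100472972 (Ucp3, an uncoupling protein, plus strand) and chr12:108850956-108851008 (Slc25a47, a mitochondrial carrier, plus strand), all upstream of the start site and outside annotated exons. Within the 300 bases from 250 before to 50 after the start site, such a match on either strand was found in 433 of 10910 promoters of tested genes (3.97%). Among the lipid genes that rose it was found in 11 of 73 promoters (15.1%). Risers outside the lipid lists held it in 60 of 1764 promoters (3.4%) and falling genes in 4.47%. A match describes letters and not a bound site, and PPARα also binds outside such windows.

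Outside the lipid lists 2294 of 14641 genes rose and 2129 fell. Counts for each list below are to be read against the 16.2% of all genes that rose and the 14.4% that fell. The lists below were not cleared of genes of the lipid lists, and a gene in both is counted in both. Pdk4, Vnn1, Gpd1 and Aldh3a2 are such genes, so these counts are not all beyond the lipid lists. Changes of at least 8-fold were 73 rises, 53 of them outside the lipid lists, and 28 falls, none of them in those lists. In all 10 genes went from at most 3 counts in each CMC library to at least 1 CPM in each Pema library, and no gene did the reverse. For these the ratio rests on few counts in CMC and is given with its exact 95% interval for counting error alone. Cpne5, a copine that binds membranes in the presence of calcium, had 1, 2, 1 and 2 counts in CMC and 324, 403, 549 and 709 in Pema, a ratio of 327 (150 to 892). Scnn1g, the gamma subunit of the epithelial sodium channel, had 0, 1, 0 and 0 counts in CMC and 74, 80, 203 and 122 in Pema, a ratio of 473 with a lower bound of 84.5. Aqp3, a channel for water and glycerol, had 3, 1, 2 and 1 counts against 60, 95, 163 and 155, a ratio of 66.8 (32.2 to 167). The limits of this choice leave no overlap between the groups.

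The other 7 were Krt79, Acot5, Scn4b, Hpdl, Trpm5, the noncoding Gm33699 and an unnamed Ensembl gene. Krt79, a keratin, had 4 counts summed over CMC and 367 over Pema, a ratio of 90.7 (35.1 to 334). Acot5, a peroxisomal thioesterase and itself a PPARα target of the lipid lists, had no count in CMC and 247 in Pema, so it was at least 81.3-fold higher against a floor of 3 counts over the group. Scn4b, a sodium channel beta subunit, rose from 3 counts, all in Ad-CTRL CMC replicate 1, to 206 summed over Pema, a ratio of 67.8 (22.9 to 332), and Hpdl, a relative of hydroxyphenylpyruvate dioxygenase, from 9 summed counts to 117. Trpm5, a cation channel known from taste cells, was at 1.09, 1.01, 1.15 and 1.15 CPM in Pema, close to the limit set. In Ad-FAT10 livers, which share no library with these, Trpm5 was at 0.159 CPM without and 0.237 CPM with the drug, while Aqp3 was at 0.187 and 14.1 CPM. The difference in the Trpm5 response between the adenoviruses did not pass the edgeR test (-3.44 on the log2 scale, adjusted p = 0.0504).

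**Figure D3:**
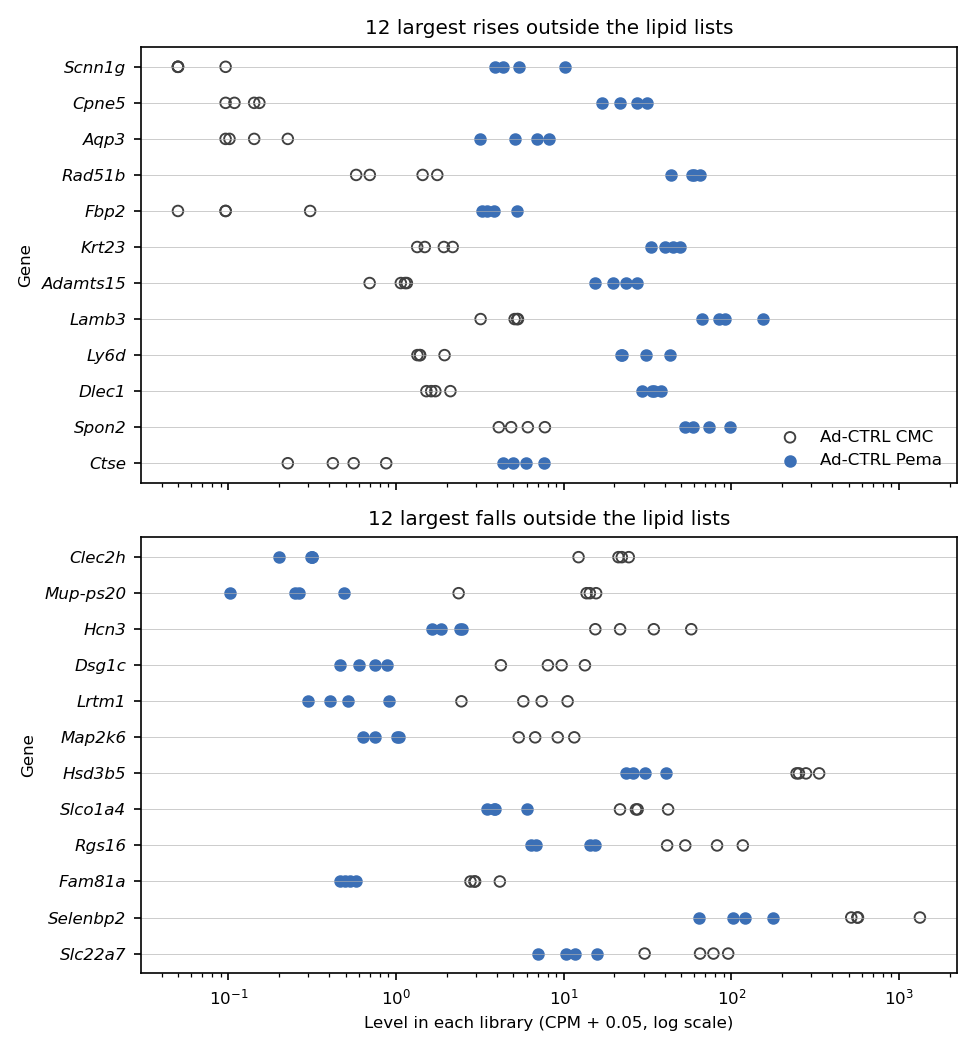
Level in each of the 8 libraries (horizontal axis, CPM plus 0.05, log scale) of the 12 largest rises (upper panel) and 12 largest falls (lower panel) outside the lipid lists, among called genes with a standard symbol and a mean log2 CPM of at least 1. Open circles are the 4 Ad-CTRL CMC libraries and filled circles the 4 Ad-CTRL Pema libraries, and only genes whose groups do not overlap were eligible.

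Among genes with a standard symbol and a mean log2 CPM of at least 1, the 25 largest rises outside the lipid lists were all at least 2.87 on the log2 scale. Rad51b, a DNA repair protein, went from 0.528, 0.647, 1.71 and 1.39 CPM to 59.8, 43.8, 64.6 and 58.2 CPM, a change of 5.70 ± 0.29 (adjusted p = 2.05e-10). Krt23, a keratin, rose from 1.68 ± 0.389 to 41.8 ± 6.897 CPM (4.63 ± 0.34), and Ly6d, a surface protein of epithelia and B lineage cells, from 1.47 ± 0.287 to 29.6 ± 9.91 CPM (4.32 ± 0.41). The matrix protease Adamts15 rose by 4.45 ± 0.23 and the secreted matrix protein Spon2 by 3.65 ± 0.20, the latter from 4.05, 4.804, 6.05 and 7.67 CPM to 52.6, 73.4, 98.5 and 59.1 CPM. Enc1, an actin-binding kelch protein, rose by 3.22 ± 0.19, and Synpo, an actin-associated protein, by 2.87 ± 0.15. All of these passed at an adjusted p of 3.01e-07 or less.

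Cbfa2t3, a transcriptional corepressor, was also among the 25 largest rises and went from 2.698, 3.46, 2.63 and 2.78 CPM to 27.6, 41.9, 35.9 and 30.00 CPM (3.54 ± 0.17, adjusted p = 7.62e-11). Rab30, a small GTPase of the Golgi, rose from 22.5 ± 5.49 to 168 ± 11.4 CPM (2.90 ± 0.15), and Atp10d, a gene of the phospholipid flippase family that the annotation lists as a polymorphic pseudogene, from 2.58 ± 0.198 to 19.4 ± 2.31 CPM (2.90 ± 0.15). Fbp2, the muscle form of fructose bisphosphatase, and Cox6b2, the testis form of a cytochrome oxidase subunit, rose by 5.40 ± 0.50 and 3.40 ± 0.30 to 3.92 ± 0.913 and 5.69 ± 0.708 CPM. In CMC Fbp2 reached at most 0.257 CPM and Cox6b2 at most 0.647 CPM in any library, and without Ad-CTRL CMC replicate 4 the change of Fbp2 was 6.68. Lamb3, at 99.1 ± 37.9 CPM in Pema, overlaps G0s2. That neighbour is a lipid gene that rose, and since the strand setting of the counting is not given, reads of the pair cannot be told apart.

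Genes with the largest gain in CPM outside the lipid lists were led by Scd1, the desaturase that makes oleate, at 6049, 9517, 11526 and 11915 CPM in CMC against 19072, 19442, 23483 and 18527 CPM in Pema. Its change was 1.05 ± 0.25 (adjusted p = 0.0032) and its groups did not overlap. Retsat, retinol saturase, went from 276, 312, 289 and 232 CPM to 1829.7, 2367, 2588 and 2179.9 CPM (3.01 ± 0.16, adjusted p = 2.14e-10). Retsat overlaps Gm45053 on the opposite strand, which rose by 2.49. Ephx2, the soluble epoxide hydrolase, rose by 1.26 ± 0.12, Dbi, the acyl-CoA binding protein, by 1.16 ± 0.11, and Psap, the precursor of the lysosomal saposins, by 1.06 ± 0.13. Each of these 3 passed at an adjusted p of 7.15e-06 or less. Slc25a47, whose promoter is shown above, rose from 946 ± 78.2 to 1638 ± 129.6 CPM (0.79 ± 0.12).

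The largest falls began with Clec2h, a C-type lectin of the NK receptor ligand family, which went from 12.2, 22.1, 24.4 and 21.1 CPM to 0.259, 0.267, 0.150 and 0.264 CPM, 83.1-fold lower (a fall by 6.38 ± 0.36 on the log2 scale, adjusted p = 4.3e-10). Map2k6, a kinase upstream of p38, fell from 5.34, 11.5, 6.701 and 9.16 CPM to 0.985, 0.588, 0.698 and 0.969 CPM, by 3.32 ± 0.26. Dsg1c, a desmosomal cadherin, fell from 8.78 ± 3.801 to 0.624 ± 0.182 CPM, by 3.80 ± 0.43. Bmf, a BH3 protein that promotes apoptosis, fell by 2.33 ± 0.27, and Rgs16, a regulator of G protein signalling, fell from 41.3, 52.98, 81.99 and 117 CPM to 15.3, 14.3, 6.78 and 6.34 CPM, by 2.78 ± 0.43. Baiap2, an adaptor of actin remodelling, fell from 24.6 ± 3.63 to 5.27 ± 0.779 CPM, by 2.21 ± 0.18. All 6 passed at an adjusted p of 8.31e-05 or less. Hcn3, a cation channel that fell by 3.97 ± 0.42, overlaps Pklr, the liver pyruvate kinase, which fell by 1.95 on the opposite strand.

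Triglyceride, phospholipid and fatty acid synthesis genes showed 21 rises and 8 falls among 45 tested, with a median of 0.34. The acyltransferases that start glycerolipid synthesis rose, with Gpat3 from 5.28, 4.53, 4.58 and 6.22 CPM to 37.6, 50.4, 57.2 and 43.9 CPM (3.20 ± 0.18) and Gpat4 from 208, 294, 199 and 191 CPM to 614, 578, 634 and 640.4 CPM (1.47 ± 0.13, adjusted p = 1.33e-07). Mogat1, a monoacylglycerol acyltransferase, rose to 5.92 ± 1.48 CPM from 0.554 ± 0.191, although it overlaps a transcript on the opposite strand that also rose. Elovl5, an elongase of polyunsaturated fatty acids, rose by 1.54 ± 0.21. Lpin1, the phosphatidate phosphatase that is also a coactivator of PPARα, fell from 118, 102, 130.4 and 150.4 CPM to 30.2, 33.5, 34.3 and 28.6 CPM, by 1.98 ± 0.30 (adjusted p = 5.98e-05). Pemt and Etnk2, of phosphatidylcholine and phosphatidylethanolamine synthesis, fell by 0.71 ± 0.09 and 0.94 ± 0.12, both with groups that did not overlap.

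Of 12 aquaporin and glycerol genes 6 rose and 2 fell. Gk, glycerol kinase, rose from 87.4, 88.6, 94.00 and 71.4 CPM to 260.4, 284, 354 and 326 CPM (1.84 ± 0.12), and Gpd1, the cytosolic glycerol phosphate dehydrogenase, from 298 ± 23.3 to 1037 ± 204 CPM (1.80 ± 0.14). Aqp11, an aquaporin of intracellular membranes, fell from 58.3 ± 1.31 to 33.6 ± 3.76 CPM, by 0.79 ± 0.10 (adjusted p = 8.13e-06), and Tkfc, which phosphorylates dihydroxyacetone and glyceraldehyde, fell by 0.86 ± 0.18 (adjusted p = 0.00147).

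Of 34 sphingolipid genes 8 rose (23.5%) and 6 fell (17.6%), with a median of 0.04, against 16.2% and 14.4% of all genes. With library totals 5 rose and 8 fell, as they did with upper quartile factors. Without Ad-CTRL CMC replicate 3 the risers were 5. Kdsr, the reductase of the early steps of ceramide synthesis, rose from 30.6, 30.2, 29.2 and 28.9 CPM to 93.6, 81.5, 94.4 and 90.1 CPM (1.60 ± 0.09). St3gal5, which makes the ganglioside GM3, rose from 180.4 ± 18.2 to 598 ± 16.1 CPM (1.73 ± 0.12), and Smpd3, a neutral sphingomyelinase, fell from 5.81 ± 2.15 to 1.15 ± 0.168 CPM, by 2.32 ± 0.34 (adjusted p = 4.85e-05). Among 30 retinoid genes 6 rose (20%) and 9 fell (30%). Besides Retsat, the retinol dehydrogenases Dhrs4 and Rdh16 rose by 1.33 ± 0.10 and 1.48 ± 0.18. Rdh5, another retinol dehydrogenase, fell by 1.43 ± 0.18, and Stra6l, a receptor of retinol binding protein, fell from 108 ± 14.01 to 58.8 ± 8.27 CPM, by 0.88 ± 0.12.

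Mitochondrial genes encoded in the nucleus rose in several lists, while the transcripts of mitochondrial DNA did not pass the test in either direction. Citric acid cycle genes rose in 13 of 26 cases with none falling (median 0.32), among them Dlst, a subunit of the oxoglutarate dehydrogenase complex, which went from 214, 203, 228 and 214 CPM to 350.1, 384, 425 and 376 CPM (0.84 ± 0.08). Oxidative phosphorylation genes of the nucleus rose in 18 of 45, none falling (median 0.27). Cycs, cytochrome c, rose from 101.4, 100.7, 84.1 and 56.9 CPM to 247, 186, 216 and 221 CPM (1.34 ± 0.16), and Atp5g3, a subunit of ATP synthase, from 483 ± 44.2 to 836 ± 14.9 CPM (0.79 ± 0.11). None of 12 mitochondrially encoded genes was called by edgeR (median -0.17), 0 had an unadjusted p under 0.05, and DESeq2 and limma-voom called 0. Their share of the counts was 7.28% ± 1.20 for CMC against 6.23% ± 0.781 for Pema (SD, n = 4, exact permutation p = 0.171, two-sided).

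Carriers of the inner membrane changed in both directions, 19 of 43 higher and 10 lower. Without Ad-CTRL CMC replicate 1 or 4, or Ad-CTRL Pema replicate 3, the falling carriers numbered 6, 5 and 5. Slc25a30 rose from 43.9, 49.4, 41.5 and 34.2 CPM to 212, 268, 299.8 and 288 CPM (2.66 ± 0.17), and Slc25a34 from 5.88 ± 1.29 to 18.8 ± 0.526 CPM (1.68 ± 0.14). Slc25a42, which imports coenzyme A, rose by 1.35 ± 0.16. Slc25a15, the ornithine carrier of the urea cycle, fell from 292, 311, 255 and 258 CPM to 173, 158, 180.5 and 191 CPM, by 0.67 ± 0.12. Mitochondrial ribosome and import genes showed 11 rises and 1 fall among 45 tested, with 6 rises under library totals and 7 with upper quartile factors. Grpel1, a partner of mitochondrial Hsp70 in import, rose by 0.60 ± 0.10.

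Of 31 coenzyme A and NAD genes 10 rose and 4 fell, with 6 risers under library totals or without Ad-CTRL CMC replicate 1. Vnn1, the pantetheinase that recycles the vitamin part of coenzyme A, rose from 33.8, 38.1, 62.3 and 51.8 CPM to 432, 426, 624 and 518 CPM (3.43 ± 0.21), and Ppcs, of coenzyme A synthesis, from 27.3, 29.01, 24.4 and 23.8 CPM to 100.3, 90.9, 101.4 and 92.8 CPM (1.88 ± 0.11). Nnmt, which methylates nicotinamide, fell from 268, 202, 151 and 113 CPM to 54.2, 58.3, 34.4 and 53.4 CPM, by 1.87 ± 0.26 (adjusted p = 2.42e-05). Acmsd, which diverts tryptophan breakdown away from NAD synthesis, fell by 1.51 ± 0.32 (adjusted p = 0.00137). Neither gene overlapped between the groups.

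Sugar metabolism genes showed 16 falls and 9 rises among 47 tested, with a median of -0.01. The subunits that bring protein phosphatase 1 to glycogen went opposite ways. Ppp1r3g rose from 1.47, 1.89, 4.76 and 6.84 CPM to 49.8, 35.6, 37.6 and 25.2 CPM (3.30 ± 0.35, adjusted p = 1.17e-06), and Ppp1r3c fell from 18.9, 30.6, 22.00 and 24.2 CPM to 5.81, 4.33, 3.19 and 3.26 CPM, by 2.54 ± 0.26 (adjusted p = 6.91e-07). Slc37a4, the glucose 6-phosphate transporter of the endoplasmic reticulum, fell from 242, 231, 238 and 321 CPM to 73.8, 102, 72.7 and 78.6 CPM, by 1.66 ± 0.13. Gckr, the inhibitor of glucokinase, fell from 189 ± 23.8 to 92.3 ± 7.97 CPM, by 1.04 ± 0.12, and Ugp2, which makes UDP-glucose, fell from 317 ± 28.7 to 126 ± 3.68 CPM, by 1.33 ± 0.12. Pgam1, a glycolytic mutase, rose by 0.49 ± 0.07.

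Amino acid breakdown and the urea cycle were lowered broadly. Of 44 genes 26 fell and 4 rose, with a median of -0.45, against 14.4% and 16.2% of all genes. Cps1, the entry enzyme of the urea cycle, had 2628, 2768, 2796 and 2695 CPM in CMC against 802, 1364, 1131 and 900.5 CPM in Pema, a fall by 1.38 ± 0.16 (adjusted p = 4.56e-06). Ass1 and Asl, the next enzymes of the cycle after ornithine transcarbamylase, fell from 2548 ± 269 to 1122 ± 140.3 CPM and from 670.4 ± 42.4 to 267 ± 39.1 CPM, by 1.18 ± 0.14 and 1.33 ± 0.13. Prodh, proline dehydrogenase, fell from 254, 184, 223 and 267 CPM to 60.9, 71.8, 45.9 and 51.3 CPM, by 2.01 ± 0.20, and Gls2, liver glutaminase, from 351 ± 37.1 to 130.4 ± 13.3 CPM, by 1.43 ± 0.15. In none of these 5 did the groups overlap. Cps1, Ass1 and Tdo2 are also hepatocyte markers. The hepatocyte marker sum was lower in the same libraries, and its part in the fall of these and the following hepatocyte gene groups was not tested.

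Against that direction Tdo2, the tryptophan dioxygenase of the first step of tryptophan breakdown, rose from 1887, 2155, 1698 and 1315 CPM to 3783, 2815, 3339 and 3972 CPM (0.98 ± 0.17, adjusted p = 0.000223). Got2, the mitochondrial aspartate aminotransferase, rose by 0.42 ± 0.11 (adjusted p = 0.0067). Of 44 one-carbon and branched-chain genes 7 rose (15.9%) and 11 fell (25%), the latter 7 without Ad-CTRL Pema replicate 4. Gnmt, the glycine methyltransferase that consumes S-adenosylmethionine, fell from 1512, 1499.5, 1485 and 1518 CPM to 614, 544, 428 and 482 CPM, by 1.54 ± 0.13. Chdh, choline dehydrogenase, rose from 155, 198, 196 and 199.9 CPM to 311, 402, 432 and 361 CPM (1.01 ± 0.11). Etnppl, which breaks down phosphoethanolamine, fell from 62.9, 199.8, 99.8 and 114 CPM to 26.4, 17.6, 33.02 and 30.7 CPM, by 2.15 ± 0.27.

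**Figure D4:**
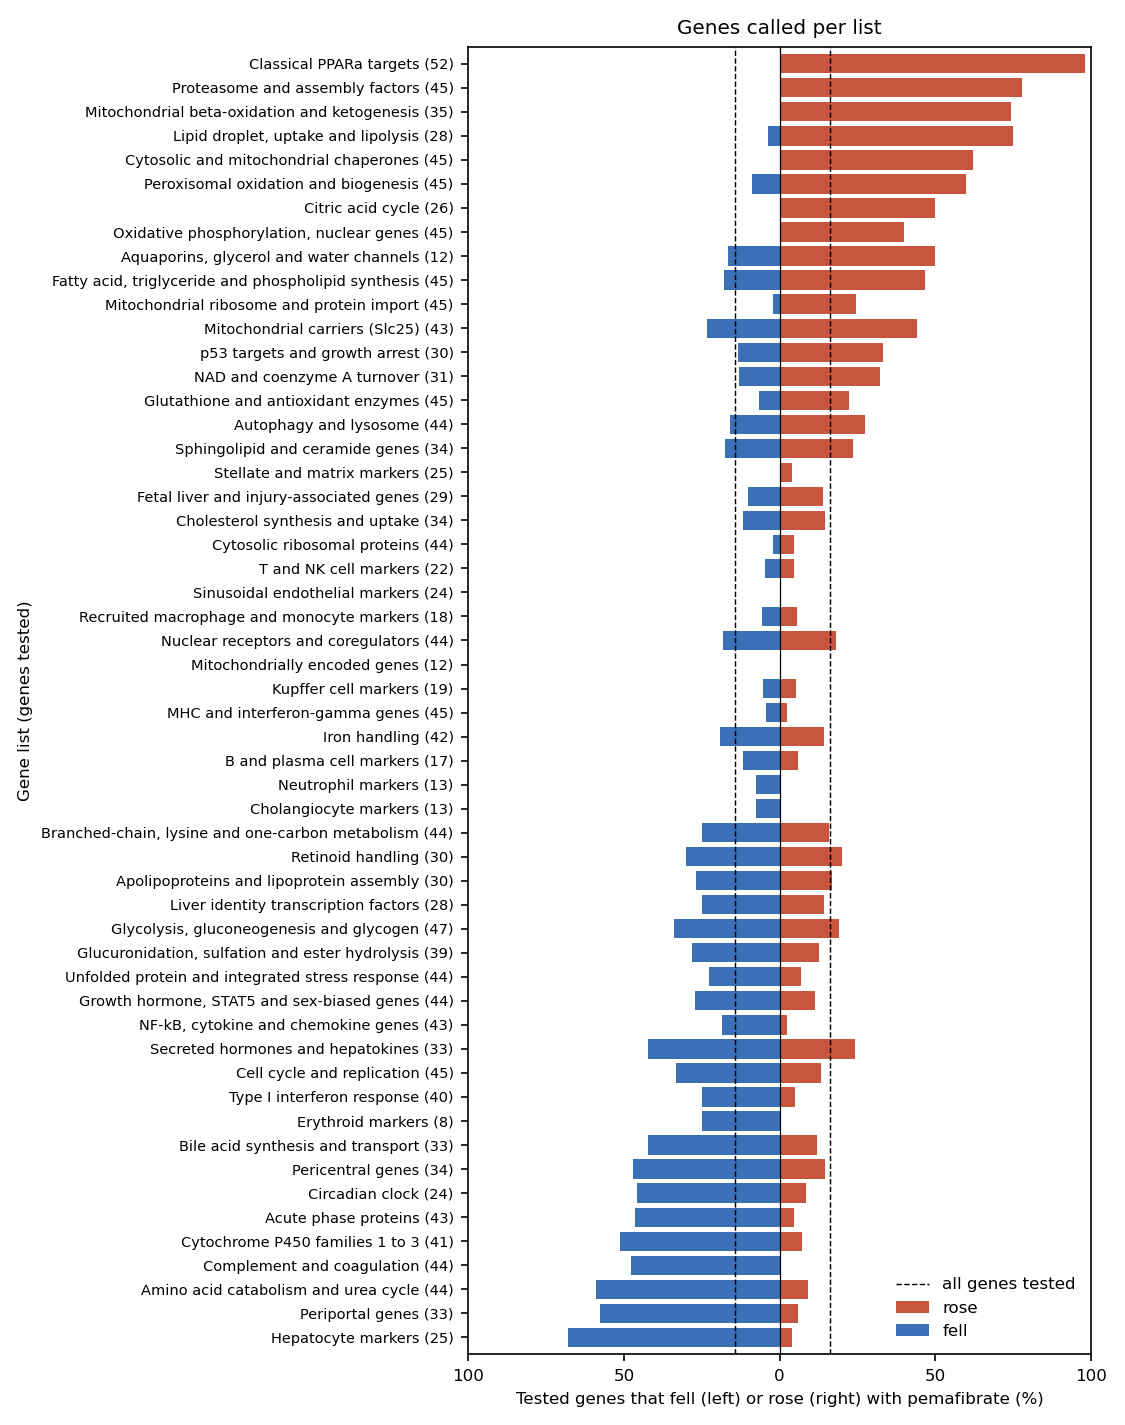
Percentage of tested genes that rose (bars to the right) and fell (bars to the left) with pemafibrate in each of 54 gene lists, with the number of tested genes beside each list name. Dashed lines mark the 16.2% of all genes that rose and the 14.4% that fell. Lipid oxidation, proteasome and chaperone lists extend to the right, and hepatocyte marker, amino acid, zonation, P450 and coagulation lists to the left.

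Drug-metabolizing enzymes of the P450 families 1 to 3 fell in 21 of 41 cases and rose in 3, with a median of -0.74, and 13 fell by at least 2-fold. Cyp2c70, which makes the muricholic acids of mice, fell from 695, 457, 459.7 and 462 CPM to 110.4, 141, 128 and 128 CPM, by 2.03 ± 0.20 (adjusted p = 3.37e-07). Members of the Cyp3a and Cyp2c families such as Cyp3a59 and Cyp2c67 fell by 1.48 ± 0.20 and 1.22 ± 0.18, although reads of such close copies can be divided between them. The 3 that rose were Por, the reductase that supplies electrons to all of these enzymes, from 439, 515, 561 and 539.9 CPM to 723, 1134, 1065 and 911 CPM (0.90 ± 0.13), Cyp2j5, an epoxygenase of arachidonic acid (0.57 ± 0.10), and Cyp2a22 (2.03 ± 0.38).

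Conjugating enzymes fell in 11 and rose in 5 of 39 cases, and 18 were lower when the 8 libraries were fitted alone. Ces1b and Sult1b1, a carboxylesterase and a sulfotransferase, fell by 1.36 ± 0.13 and 1.38 ± 0.15. Other carboxylesterases rose, with Ces1d, a triglyceride hydrolase, from 726 ± 135 to 1496 ± 126 CPM (1.04 ± 0.21). Glutathione and antioxidant genes included 10 risers and 3 fallers out of 45, with 5 and 4 under library totals, 6 and 4 with upper quartile factors and 6 risers without Ad-CTRL Pema replicate 3. Ephx1, the microsomal epoxide hydrolase, rose from 416 ± 51.7 to 847 ± 113 CPM (1.03 ± 0.13), and Gstt2, a glutathione transferase, from 90.3 ± 20.4 to 213 ± 14.01 CPM (1.23 ± 0.14). Gclm, the regulatory subunit of glutathione synthesis, fell by 0.48 ± 0.09.

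Bile acid genes included 14 fallers and 4 risers out of 33, with a median of -0.39. Cyp7a1, which sets the rate of bile acid synthesis, had 245, 179, 361 and 346 CPM in CMC against 48.9, 67.7, 45.8 and 74.5 CPM in Pema, with no overlap (a fall by 2.26 ± 0.39, adjusted p = 0.000216). Akr1d1, a reductase of the same pathway, fell from 178 ± 23.8 to 57.5 ± 11.9 CPM, by 1.63 ± 0.19, and the uptake transporter Slco1a4 from 29.5 ± 8.68 to 4.26 ± 1.15 CPM, by 2.79 ± 0.26. Akr1d1 overlaps Gm7463 on the same strand, which changed by -2.73. Abcb4, which secretes phosphatidylcholine into bile, rose from 308, 337, 300.3 and 263 CPM to 497, 554, 589 and 562 CPM (0.87 ± 0.10, adjusted p = 2.72e-06). Slc22a7, an organic anion transporter, fell from 95.5, 30.3, 78.01 and 64.9 CPM to 7.002, 11.5, 15.8 and 10.3 CPM, by 2.59 ± 0.47.

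Sterol synthesis did not move as a block, with 5 of 34 genes higher (14.7%), 4 lower (11.8%) and a median of 0.03. Of all genes 16.2% rose and 14.4% fell. Insig2, an anchor of the sterol sensor, rose from 135 ± 30.03 to 396 ± 49.7 CPM (1.55 ± 0.16), and Hsd17b7, a reductase of late sterol synthesis, from 52.9, 50.3, 58.6 and 51.8 CPM to 159, 156, 151 and 144 CPM (1.51 ± 0.14). Apolipoprotein and lipoprotein assembly genes showed 5 rises (16.7%) and 8 falls (26.7%) among 30 tested. Mttp, the transfer protein that loads lipid onto apolipoprotein B, rose from 255, 237, 259 and 277 CPM to 442, 635, 755 and 594 CPM (1.24 ± 0.13), and the lipoprotein receptor gene Vldlr from 1.04 ± 0.473 to 4.54 ± 1.94 CPM (2.10 ± 0.40). Angptl4 and Angptl8, secreted inhibitors of lipoprotein lipase, went apart, Angptl4 rising from 127 ± 16.2 to 301 ± 30.5 CPM (1.25 ± 0.19) and Angptl8 falling from 19.6, 38.9, 33.1 and 59.2 CPM to 14.5, 14.1, 12.97 and 10.1 CPM (by 1.55 ± 0.37, adjusted p = 0.00348).

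Acute phase genes had 20 members lower and 2 higher of the 43 tested, with a median of -0.60. Without Ad-CTRL CMC replicate 1 the falling genes were 13. That library had the highest serum amyloid levels, with Saa1 at 1009, 251, 378 and 141 CPM in CMC against 77.5, 107, 65.4 and 70.3 CPM in Pema (a fall by 2.47 ± 0.72, adjusted p = 0.0138). Without it Saa1 fell by 1.68 and did not pass (adjusted p = 0.0753). Serpina3m, a protease inhibitor of the acute phase, fell more evenly, from 222, 212, 327 and 275 CPM to 38.7, 77.95, 42.05 and 38.3 CPM, by 2.40 ± 0.23 (adjusted p = 2.91e-07). Il6ra, the interleukin 6 receptor, fell from 66.4 ± 7.43 to 28.5 ± 6.26 CPM, by 1.22 ± 0.17. Il1rn, the antagonist of the interleukin 1 receptor, went against the list and rose from 15.3, 8.36, 8.37 and 8.64 CPM to 51.7, 62.4, 59.4 and 53.2 CPM (2.49 ± 0.22, adjusted p = 1.38e-07). The summed neutrophil markers were 80.9, 27.7, 55.1 and 32.97 CPM in CMC and 18.1, 33.1, 21.6 and 24.7 CPM in Pema (exact permutation p = 0.0857, two-sided), highest in the same CMC library, and their part in the result was not tested.

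Complement and coagulation genes fell in 21 of 44 cases and none rose, with a median of -0.41. F11, coagulation factor XI, fell from 100.1, 73.2, 97.7 and 107 CPM to 21.2, 28.1, 24.9 and 24.5 CPM, by 1.94 ± 0.12 (adjusted p = 1.16e-09). Mbl2, a lectin that starts complement, fell from 409.9, 512, 595 and 597 CPM to 226, 250.0, 187 and 206 CPM, by 1.28 ± 0.15, and Klkb1, plasma kallikrein, from 178 ± 4.98 to 101.3 ± 5.47 CPM, by 0.81 ± 0.10. Fgb and Fgg, fibrinogen chains of the hepatocyte marker list, fell by 0.83 ± 0.20 and 0.97 ± 0.20 (adjusted p = 0.0044 and 0.00142). The hepatocyte marker sum was lower in the same libraries, and F2, prothrombin, is in both lists.

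Hormone and hepatokine genes changed in 8 cases upward (24.2%) and 14 downward (42.4%) of 33. Fgf21, the fasting hormone, rose from 2.05, 1.16, 3.42 and 1.698 CPM to 14.3, 14.2, 15.9 and 14.8 CPM (2.82 ± 0.46), and Inhbe, the activin E subunit, from 72.1 ± 15.5 to 157 ± 24.5 CPM (1.13 ± 0.17). Lect2, a secreted chemotactic protein, fell by 0.94 ± 0.14, and Enho, which encodes adropin, fell from 27.3, 20.7, 19.5 and 32.6 CPM to 6.12, 6.41, 5.74 and 8.86 CPM, by 1.88 ± 0.26. Enho overlaps Dnaic1 on the opposite strand, which changed by -3.08. Of 42 iron genes 6 rose (14.3%) and 8 fell (19%), close to the 16.2% and 14.4% of all genes. Tfrc, the transferrin receptor, rose from 11.6, 15.7, 11.1 and 9.98 CPM to 41.1, 24.8, 36.1 and 36.9 CPM (1.52 ± 0.23), and Id1, a target of BMP signalling, from 8.92, 11.1, 6.79 and 9.36 CPM to 39.2, 36.97, 28.3 and 20.1 CPM (1.78 ± 0.28). Steap2, a metalloreductase, fell by 1.01 ± 0.13.

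Genes that depend on growth hormone and sex fell in 12 of 44 cases and rose in 5, with a median of -0.35. Hsd3b5, a male-biased steroid enzyme, had 333, 252, 278 and 244 CPM in CMC against 30.3, 25.8, 23.3 and 40.7 CPM in Pema, a fall by 3.20 ± 0.61 (adjusted p = 0.000549). Selenbp2, also male-biased, fell from 1329.9, 568, 563 and 518 CPM to 64.2, 121, 101.4 and 178 CPM, by 2.68 ± 0.55, with reads that could be shared with its close copy. Cyp4a12a and Cyp4a12b, male-biased fatty acid hydroxylases, rose by 1.15 ± 0.21 and 1.95 ± 0.22, so the male-biased genes named here did not share a direction. Stat5b, the transcription factor that answers growth hormone, fell from 54.5 ± 3.24 to 39.96 ± 2.102 CPM, by 0.45 ± 0.08.

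Clock genes showed 11 falls and 2 rises among 24 tested, with a median of -0.31. Clock, an activator of the loop, rose from 30.2, 32.9, 27.7 and 23.3 CPM to 51.4, 36.97, 55.4 and 53.4 CPM (0.79 ± 0.14), whereas Per2, a repressor, fell from 30.02 ± 4.37 to 16.6 ± 2.59 CPM, by 0.86 ± 0.12. The labels give hours before liver removal and no clock time, and list the same schedule for both groups.

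Among nuclear receptors and coregulators 8 of 44 rose and 8 fell (18.2% each way), near the 16.2% and 14.4% of all genes. The falls numbered 4 without Ad-CTRL CMC replicate 4 and 5 without Ad-CTRL Pema replicate 2. Ppara rose from 117, 117, 153 and 120.3 CPM to 141, 208, 228 and 191 CPM, with 1 Pema library inside the CMC range (0.60 ± 0.16, adjusted p = 0.00791). Nr1i2, the xenobiotic receptor PXR, rose from 83.7 ± 4.66 to 151 ± 8.05 CPM (0.85 ± 0.08), and Nrip1, a corepressor, from 10.6 ± 0.498 to 22.5 ± 2.78 CPM (1.08 ± 0.13). Esr1, the estrogen receptor, fell from 22.9, 13.5, 28.8 and 18.98 CPM to 9.18, 9.83, 7.48 and 8.28 CPM, by 1.28 ± 0.22. Of 28 liver transcription factors 4 rose (14.3%) and 7 fell (25%). Those that fell were 4 without Ad-CTRL Pema replicate 3 or replicate 4 and 11 with library totals. Creb3l3, a factor of fasting genes and a PPARα target, rose from 419 ± 25.97 to 681 ± 78.7 CPM (0.70 ± 0.10), Foxa1 rose by 0.92 ± 0.16, and Foxo3 fell from 56.2 ± 4.58 to 34.4 ± 1.31 CPM, by 0.71 ± 0.10.

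Markers of both ends of the liver lobule fell. Of 34 pericentral genes 16 fell and 5 rose (median -0.41), and of 33 periportal genes 19 fell and 2 rose (median -0.47). Ahr, the dioxin receptor, fell from 41.3, 29.9, 40.1 and 37.1 CPM to 12.4, 15.2, 12.9 and 15.3 CPM, by 1.41 ± 0.17. Aldh3a2, a fatty aldehyde dehydrogenase and a PPARα target in the pericentral list, rose from 342 ± 42.7 to 1557 ± 171 CPM (2.19 ± 0.18). The risers of the pericentral list were 3 in place of 5 with library totals, with upper quartile factors or with DESeq2 size factors, and also 3 when any 1 of 8 libraries was left out, among them all 4 Ad-CTRL Pema libraries.

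The proteasome rose across its subunits. Of 45 proteasome and assembly genes 35 rose and none fell, with a median of 0.51, and with library totals 30 rose and none fell. Nfe2l1, the transcription factor that raises proteasome genes when the proteasome is limiting, rose from 159, 159, 174 and 162 CPM to 383, 429, 463 and 398 CPM (1.35 ± 0.09, adjusted p = 3.71e-09). Psmd4, a ubiquitin receptor of the regulatory particle, rose from 122, 124, 125 and 104 CPM to 277, 320.5, 332 and 288 CPM (1.36 ± 0.09), and Psmc4, an ATPase of the same particle, from 81.9 ± 3.54 to 129.9 ± 4.103 CPM (0.66 ± 0.08). The groups did not overlap for any of these 3 genes.

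Chaperones of the cytosol and the mitochondrion rose in 28 of 45 cases and none fell, with a median of 0.43. With upper quartile factors 26 rose and 2 fell. Hspd1, the mitochondrial chaperonin, rose from 536, 518, 504 and 409 CPM to 881, 1014, 1171 and 1013 CPM (1.05 ± 0.11), Chordc1, a partner of Hsp90, from 27.4 ± 2.24 to 58.95 ± 5.86 CPM (1.10 ± 0.10), and Dnaja1, a partner of Hsp70, by 0.80 ± 0.11. Of 44 unfolded protein response genes 10 fell (22.7%), 3 rose (6.82%) and 31 were not called, with a median of -0.12. Of all genes 14.4% fell and 16.2% rose. Xbp1, a transcription factor of that response, fell from 423, 313, 282 and 262 CPM to 213, 218, 140.5 and 171 CPM, by 0.79 ± 0.16, Ern1, its upstream sensor, by 0.66 ± 0.09, and Edem2, of endoplasmic reticulum degradation, by 0.75 ± 0.09. Gdf15, a stress hormone, rose from 6.98, 3.46, 3.096 and 3.34 CPM to 16.2, 13.7, 17.4 and 8.55 CPM (1.74 ± 0.33), and Dnajb9, an endoplasmic reticulum cochaperone, by 0.85 ± 0.13.

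Autophagy and lysosome genes were higher in 12 of 44 cases and lower in 7, or 11 each with library totals. Lipa, the lysosomal acid lipase, rose from 168 ± 31.9 to 313 ± 45.4 CPM (0.90 ± 0.14), and Map1lc3a, an LC3 of the autophagosome, from 34.1, 38.5, 34.6 and 40.8 CPM to 61.98, 60.6, 61.6 and 59.1 CPM (0.72 ± 0.10). The cathepsin gene Ctsl fell by 0.50 ± 0.12. Cytosolic ribosomal protein genes were called rarely, with 2 of 44 higher and 1 lower (edgeR), and 0 and 2 under library totals or upper quartile factors.

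Of 30 p53 targets and growth arrest genes 10 rose (33.3%) and 4 fell (13.3%), against 16.2% and 14.4% of all genes. Gadd45b, a stress-induced growth arrest gene, rose from 3.52, 3.37, 3.697 and 2.98 CPM to 25.6, 21.3, 28.1 and 15.1 CPM (2.73 ± 0.27, adjusted p = 6.14e-07), and Fas, a death receptor, from 24.2, 19.4, 20.3 and 17.2 CPM to 48.1, 57.1, 50.03 and 44.5 CPM (1.30 ± 0.11). Cell cycle genes included 15 fallers and 6 risers out of 45 (33.3% and 13.3%), and 9 fell in limma-voom or without Ad-CTRL Pema replicate 4. Cdc20 and Birc5, of mitosis, fell from 3.78 ± 0.229 to 1.42 ± 0.160 CPM and from 4.05 ± 0.455 to 1.72 ± 0.407 CPM. E2f8, a transcription factor of polyploid hepatocytes, rose from 10.6, 6.56, 9.38 and 8.38 CPM to 25.4, 38.4, 49.2 and 34.5 CPM (2.08 ± 0.23).

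Of 45 MHC and interferon gamma genes 1 rose and 2 fell. The riser was H2-Q10, a class I gene of liver that is secreted, from 2493 ± 219 to 4170.1 ± 263 CPM (0.74 ± 0.11). Type I interferon genes had 10 members lower and 2 higher of the 40 tested, and 18 fell without Ad-CTRL Pema replicate 2 or with no low-count filter. Stat2, a factor of interferon signalling, fell from 106, 91.1, 98.99 and 101.4 CPM to 63.3, 75.3, 64.3 and 65.2 CPM, by 0.57 ± 0.08, and Ddx58, the RNA sensor RIG-I, from 37.3 ± 5.17 to 18.99 ± 4.82 CPM, by 0.98 ± 0.16. Cytokine and chemokine genes showed 8 falls and 1 rise among 43 tested, that riser being Il1rn, and 5 fell without Ad-CTRL CMC replicate 1 or Ad-CTRL Pema replicate 3. Il18, an interleukin of the inflammasome, fell by 0.85 ± 0.13, and Il15 by 1.50 ± 0.23, to 0.883 ± 0.318 CPM.

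Few marker genes of the other cell types of liver were called, where of all genes 16.2% rose and 14.4% fell. Many lymphocyte, neutrophil and cholangiocyte markers were at low levels, such as Cd3e, Ms4a1 and Krt19 at 0.508, 0.882 and 0.873 CPM in CMC. Of genes in the lowest tertile by level 6.5% rose and 12.4% fell. The part of level in the marker counts was not tested, so few calls do not show unchanged cell content. No sinusoidal endothelial marker of 24 was called by edgeR in either direction (median 0.09), nor by DESeq2 or limma-voom, and 0 had an unadjusted p under 0.05. Their summed level was 703.8 ± 109 CPM in CMC against 735.6 ± 137 CPM in Pema (SD, n = 4). Of 19 Kupffer cell markers 1 rose and 1 fell, with sums of 1052 ± 112 and 960.4 ± 139.6 CPM. Of 25 stellate and matrix markers only Col4a1, a basement membrane collagen, was called, from 34.5, 27.9, 36.8 and 37.1 CPM to 52.7, 79.02, 75.1 and 56.97 CPM (0.95 ± 0.20). Of 18 recruited macrophage and monocyte markers 1 rose and 1 fell, as did 1 and 2 of 17 B and plasma cell markers and 1 and 1 of 22 T and NK cell markers. Of 13 cholangiocyte markers 1 fell, of 13 neutrophil markers 1, and of 8 erythroid markers 2, with no riser in these 3 lists. Fetal liver and injury-associated genes included 4 risers (13.8%) and 3 fallers (10.3%) out of 29. The T and NK sum was 45.3 ± 14.7 CPM in CMC against 45.9 ± 7.46 CPM in Pema. None of the 9 sums other than that of hepatocytes had an exact permutation p below 0.0857. Some sums were mostly 1 or 2 genes. In CMC Fn1 averaged 1282 of the 1523 CPM of the recruited macrophage and monocyte sum. Xbp1 and Sdc1 averaged 320 and 198 of the 567 CPM of the B and plasma cell sum.

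Of 344 lincRNA genes tested 75 fell and 36 rose (median -0.27), and of 315 antisense genes 68 fell and 23 rose (median -0.25), whereas of 13137 protein-coding genes 1866 fell and 2244 rose. These directions of the noncoding classes were the same under library totals, upper quartile factors and DESeq2 size factors. That of the protein-coding genes was not, with 1664 higher and 2428 lower under library totals and 1799 and 2441 with upper quartile factors. Of all genes in the lowest tertile by level 320 rose and 609 fell, and the part of level in the noncoding counts was not tested. Single noncoding genes changed by more than these medians, and those named next were chosen after their values were seen. Gm15441, an antisense gene, had 0.411, 0.970, 0.370 and 0.669 CPM in CMC against 307, 277, 352 and 328 CPM in Pema (9.00 ± 0.36, adjusted p = 2.88e-11). It overlaps Txnip, an inhibitor of thioredoxin, on the opposite strand, which rose from 71.97, 132, 89.2 and 101.0 CPM to 217, 186, 244 and 258 CPM (1.20 ± 0.21). The lincRNA Gm31583 fell by 4.69 ± 0.50, from 95.6, 63.97, 66.9 and 61.7 CPM to 2.85, 2.99, 1.896 and 3.39 CPM (adjusted p = 1.13e-06). Since the strand setting of the counting is not given, reads of an antisense gene and its partner cannot be told apart.

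**Figure D5:**
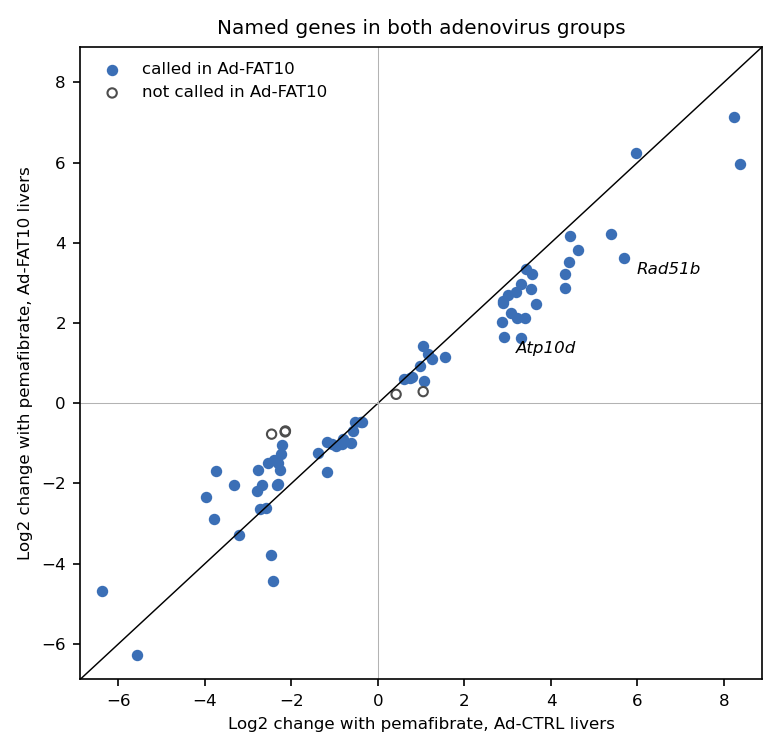
Log2 change with pemafibrate in Ad-FAT10 livers (vertical axis) against that in Ad-CTRL livers (horizontal axis) for the 25 largest rises, the 25 largest falls and the 24 genes with the largest gain or loss of CPM outside the lipid lists, with 1 gene in 2 of these sets. The line marks equal change, filled points were called in the Ad-FAT10 comparison, and the 2 labelled genes are those whose response differed between the adenoviruses (adjusted p = 0.0328 for Rad51b and 0.0148 for Atp10d).

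The same genes were read in the Ad-FAT10 livers, where pemafibrate raised 12.9% and lowered 12.5% of all genes tested. All 25 of the largest rises rose there too, and 22 of the 25 largest falls fell. The 12 largest losses of CPM were all called there, as were 10 of the 12 largest gains. The gains not called there by edgeR were Scd1, the largest (0.29, adjusted p = 0.437), and Mgst1 (0.22, adjusted p = 0.296). For Scd1 the difference between the adenoviruses did not pass the edgeR test either (-0.76, adjusted p = 0.444). A test of the difference between the responses called 23 of 14770 genes (0.156%). Rad51b changed by 5.70 with Ad-CTRL and 3.62 with Ad-FAT10 (adjusted p of the difference = 0.0328), Atp10d by 2.90 and 1.66 (adjusted p = 0.0148), Il1rn by 2.49 and 0.49 (adjusted p = 0.0106) and Pdk4 by 7.77 and 5.91 (adjusted p = 0.0492). The noncoding Gm15441 changed by 9.00 and 6.10 (adjusted p = 0.0148). In all 5 the rise was smaller with Ad-FAT10. Genes were named mainly for their change in Ad-CTRL livers, a choice that by itself favours a smaller change with Ad-FAT10. Their shared direction is therefore no result about FAT10, and the directions of the other genes called for the difference are not given here. The calls for Atp10d, Il1rn and Gm15441 held in all 24 alternative settings (adjusted p up to 0.0486, 0.0395 and 0.0492). That for Pdk4 was lost in 18 of them and that for Rad51b in 12, with the highest adjusted p without Ad-CTRL Pema replicate 3 for both (0.129 and 0.0947). Among acute phase genes 20 of 43 fell with Ad-CTRL and 28 with Ad-FAT10, and among neutrophil markers 1 and 12 of 13, differences in counts that were not tested as such.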

How the data were processed

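RNA from mouse liver was sequenced after poly(A) selection and dUTP strand marking on DNBSEQ, per the labels' protocols. The authors deposited raw counts per Ensembl gene, 1 file for each library, and did not normalize them. Per the submitters' processing notes, the build was GRCm39 and the tools were STAR 2.7.6 and DESeq2 1.36.0 and 2.11.40.6. How genes were counted, by which annotation and with which strand setting, is not given in the sources used here. Counts of overlapping genes and of near-identical copies are therefore uncertain, and overlaps are stated for only some of the named genes. Symbols, biotypes and overlaps came from GENCODE M21 on GRCm38, matched by identifier, and promoters from RefSeq on GRCm38.p6.

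Groups and replicate numbers follow the titles. No batch is given, so no value within batches could be computed, and p-values measure the spread between these libraries. None of the 12 replicate pairs was identical (chi-square per gene 14.6 to 52.62), and all libraries were kept.

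The edgeR 4.0.16 package (R 4.3.3) was used with filterByExpr, TMM scaling and a quasi-likelihood fit to the 16 libraries, tested on simulated data. The fit had 12 residual degrees of freedom and a common coefficient of biological variation of 0.151. Adjusted p are Benjamini-Hochberg values over all 14770 genes tested. The standard error is the absolute log2 change over the square root of the F statistic, so it restates the test. Library measures were compared by exact permutation in SciPy 1.17.1. Alternatives used DESeq2 1.42.0 and limma 3.58.1, other scalings and filters, the replicate block and each library left out.

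The members and gene lists were chosen with earlier results of these data known. Named genes were the 25 largest rises and falls by log2 change with a mean log2 CPM of at least 1, a standard symbol and no overlap between groups, and the 12 largest gains and losses in CPM, both outside the lipid lists. Up to 3 risers and 3 fallers of each list with the smallest p, the genes near 0 counts in a single group and a short fixed set were added. Part of these is printed, and some genes are not reported here.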

Additional observations from a re-analysis of the deposited data

Results flagged for a closer look

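Within a group of 4 libraries, a library was set apart when its gap to the nearest of the others took nearly the whole range of the group. This was checked in 388 groups, for 194 genes and library measures in CMC and in Pema, and met in 27. Chance alone would meet it in about 1 of 20 groups. Values below are log2 CPM unless a unit is given, each beside the median of the other 3 libraries of its group.

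Of the CMC libraries, replicate 1 stood apart most often. Its summed T and NK cell markers were 67.16 CPM against 36.52 CPM. In that library Il1rn was at 3.94 against 3.08, Gdf15 at 2.82 against 1.78, Selenbp2 at 10.38 against 9.14 and Cyp2c70 at 9.44 against 8.84. It was high for Scn4b at -1.94 against -3.58, and low for Chdh at 7.28 against 7.63 and for Adamts15 at -0.46 against 0.22. The same library had the highest serum amyloid and neutrophil values.

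In the other CMC libraries, replicate 2 was low for Lamb3 at 1.69 against 2.41 and high for Scnn1g at -2.94 against -3.58. Replicate 3 was high for Ppara at 7.26 against 6.87 and for Ly6d at 0.98 against 0.51, and low for Hpdl at -3.58 against -2.07. Replicate 4 was high for Slc37a4 at 8.33 against 7.90 and for Stra6l at 7.02 against 6.66, and low for Psmd4 at 6.70 against 6.96.

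Among the Pema libraries, replicate 1 was low for Acox3 at 4.53 against 4.90. It was high for Dbi at 10.55 against 10.38, for Slc25a47 at 10.84 against 10.61, for Grpel1 at 7.98 against 7.83 and for Lect2 at 5.82 against 5.62. Replicate 2 was high for Serpina3m at 6.29 against 5.28. Replicate 3 was high for Mogat1 at 3.04 against 2.38 and for Atp5g3 at 9.74 against 9.69. It was low for Nnmt at 5.11 against 5.76, for Gls2 at 6.79 against 7.11 and for Clec2h at -2.10 against -1.52.

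For 5 of the genes described, the response to pemafibrate differed between the adenoviruses in the edgeR test of the difference itself. The change in Ad-FAT10 minus that in Ad-CTRL livers was -2.07 for Rad51b (adjusted p = 0.0328), -1.25 for Atp10d (adjusted p = 0.0148), -2.00 for Il1rn (adjusted p = 0.0106), -1.86 for Pdk4 (adjusted p = 0.0492) and -2.90 for Gm15441 (adjusted p = 0.0148). The calls for Pdk4 and Rad51b were lost in 18 and 12 of 24 alternative settings. Genes were named mainly for their change in Ad-CTRL livers, which favours a smaller change in Ad-FAT10 livers.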

How the results depend on the processing

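The number of genes called in either direction, 4523, was 4460 with the 8 Ad-CTRL libraries fitted alone, 4540 with DESeq2 size factors, 4512 with library totals, 4664 with upper quartile factors, 4313 with no low-count filter, 4378 with at least 1 CPM in 4 libraries, 4698 in DESeq2 and 4383 in limma-voom. Leaving out each of the 16 libraries in turn gave 3753 to 4791 genes, 2029 to 2494 of them higher and 1724 to 2297 lower, and 576 to 628 and 523 to 615 at 2-fold. The lowest totals were without Ad-CTRL Pema replicate 3. All of these counts stayed within 1.5 times the value reported. Of the 177 called genes named in the text, 173 were called in all 25 settings and none reversed. The exceptions were Ubd, Saa1, Nudt7 and Pex11g, whose values are given where they are described. Of 56 counts of at least 5 in gene lists, 15 moved by over 1.5 times in some setting, 12 of them when a single library was left out, and these too stand beside the lists. For the lists described as having no faller (PPARα targets, proteasome, citric acid cycle, oxidative phosphorylation) or no riser (complement and coagulation), edgeR gave 0 genes at an unadjusted p under 0.05 in that direction, and every setting called 0. This did not hold for the chaperones, with 1 such faller in edgeR and up to 2 called lower in a setting. Nor did it hold for the neutrophil and erythroid markers, each with 1 such riser and up to 1 called higher.

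With the replicate block 4369 genes were called, 2320 higher and 2049 lower. The replicate numbers did not pair the libraries. Deviations of same-numbered CMC and Pema libraries correlated at -0.172 to 0.116 over 4 pairs, those of other numbers at -0.152 to 0.142, and 1 of 4 CMC libraries correlated best with its own number. The block ended the call of no named gene for pemafibrate, and for the difference between adenoviruses it ended that of Rad51b (adjusted p = 0.0575). The settings for that difference were chosen after seeing the data.

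With 4 libraries in each group, the smallest exact permutation p of a library measure is 0.0286, and none passed after adjustment. Genes with a few counts in CMC carry wide ratios, and their fitted changes depend on the prior count. The counting program and strand setting are not given, which limits overlapping genes and close copies.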
